A study of Oryctolagus cuniculus with 30 samples.

Results

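Vocal fold mucosa of rabbits that had been injured and then injected with the hydrogel labelled VFLP (au) was compared with mucosa of rabbits that had neither. Samples were taken by their labels, 6 libraries from 3 VFLP (au) animals and 6 from 3 animals labelled no injury/control, 12 of the 30 libraries and 6 of the 15 animals of the series. All animals were New Zealand white rabbits, and the sources used here give neither their age nor their sex. In VFLP (au) animals the superficial mucosa of both folds was stripped under ketamine and dexmedetomidine, with isoflurane where needed and topical lidocaine. Both folds received 20 µL of the hydrogel 7 days later, and tissue was taken 28 days after that treatment. Control animals were not injured or injected, and the collection time, which is counted from treatment, is not given separately for them. The series title derives the hydrogels from vocal fold lamina propria, and what (au) stands for is not stated in the labels. Injury, injection and gel therefore differ together between the 2 groups, and so does the library batch, with all control libraries in batch C and all VFLP (au) libraries in batch D. Injury, treatment and batch cannot be told apart in this comparison.

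The vocal fold is a layered vibrating tissue, with stratified squamous epithelium over a lamina propria of fibroblasts, collagen, elastic fibres, proteoglycans and hyaluronan, and with the vocalis muscle beneath. Its stiffness and its ability to vibrate depend on that matrix, and after injury fibroblasts can lay down a scar in its place. Mucosa dissected from the fold can carry muscle fibres, vessels, nerve and glands with it, so the marker genes of those tissues are given beside the results.

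Messenger RNA was sequenced as paired reads of 100 bases, and each deposited value is the number of reads on a gene in a library. Control libraries held 14.2 to 27.5 M gene reads and VFLP (au) libraries 19.3 to 28.3 M. Reads of the left and right fold of an animal were summed, since both folds belong to one animal, and each gene was compared over 3 animals a side. Levels are CPM, counts scaled to the size of the library, a fold difference is given on the log2 scale with its standard error (SE), and a gene is said to rise or fall where edgeR's p, adjusted by Benjamini and Hochberg over all genes tested, was under 0.05. Animals of a group are separate by their labels. A p-value sets the difference between 3 animals a side against a spread between animals that was estimated over all 15 animals of the 5 groups. Log2 CPM of the 2 folds of an animal correlated at 0.948 to 0.979 across genes. Of 17770 genes tested, 1918 rose and 2966 fell, 27.5% in all, 10.8% upward and 16.7% downward. The counts of genes that rose or fell in each gene list below are to be read against these shares. The median log2 fold change over all genes tested was 0.11. The 4884 genes became 2528 without control animal 2, 3040 without VFLP (au) animal 2, 1706 in left folds alone and 2670 with the 6 animals alone in the fit.

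Markers of the dissected tissue were checked first. Squamous keratins were present in all 6 animals, with KRT4, a keratin of the layers above the basal cells, at 9683, 5359 and 9635 CPM in control and 12948, 12629 and 8670 CPM in VFLP (au). Fibroblast and endothelial markers were also present in all 6. Cartilage was nearly absent, with COL2A1, its main collagen, at no more than 1.14 CPM in any of the 6 animals and MATN1 at 0 in all of them. Markers of glands and ciliated cells varied widely between the animals of each group: SCGB1A1, a secretory cell product, ranged from 6.53 to 903 CPM in control and from 0.352 to 6993 CPM in VFLP (au).

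One set of rows stands apart before any gene list is read. The deposited table has 37 rows with names that begin with KEF51, made up of 13 p, 2 r and 22 t entries, which is the make-up of an animal mitochondrial genome, although the files do not name them. These rows held 5.43 to 29% of gene reads in control libraries and 1.65 to 4.77% in VFLP (au) libraries. Of 19 tested, 16 were called lower and 11 of them by more than 100-fold. KEF51_p07 stood at 13708, 59522 and 24531 CPM in control and at 30.4, 19.4 and 71.6 CPM in VFLP (au). The same separation ran through other groups of the series, with 11790 CPM in 1 injury only animal against 32.8 and 31.4 CPM in the other two, and 5046 CPM in 1 VFLP (man) animal against 14.8 and 21.4 CPM. ADORA1_1, a row whose suffix marks a second copy of the adenosine receptor gene ADORA1, separated the same animals in reverse, at 12.5, 56.3 and 17 CPM in control and 1085, 919 and 1406 CPM in VFLP (au). Of 17770 rows tested, 12 divided the 5 animals that were high in KEF51_p07 from the other 10 by more than 4-fold between the nearest animals, 11 of them KEF51 rows and the other ADORA1_1. These rows are left out of the descriptions that follow but stay in library sizes and in shares of gene reads, and ADORA1_1 is uncertain as a gene. In a fit without the KEF51 rows and without the skeletal muscle genes described below, 1439 genes rose and 3235 fell. The median log2 fold change over all genes tested was 0.04 there. ADORA1_1 missed the threshold without VFLP (au) animal 1, 2 or 3 or control animal 1, 2 or 3 (edgeR adjusted p 0.055 to 0.097).

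**Figure D1:**
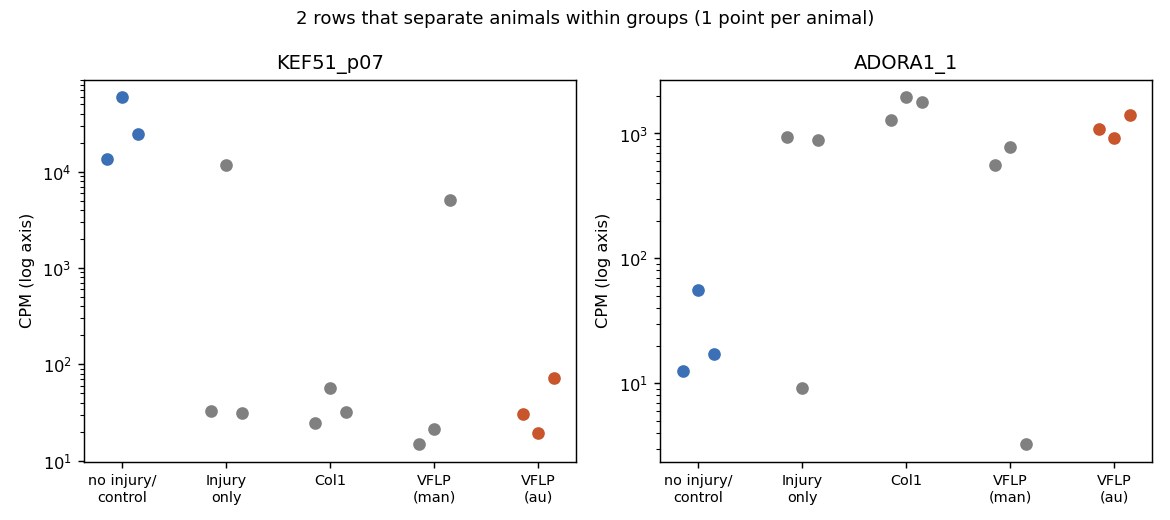
Level in CPM (log axis) of KEF51_p07 on the left and ADORA1_1 on the right in each of the 15 animals, by group, 1 point an animal. The 3 control animals lie at 13708 to 59522 CPM and the VFLP (au) animals at 19.4 to 71.6 CPM for KEF51_p07, and single animals of the injury only and VFLP (man) groups lie with the controls in both panels.

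Skeletal muscle RNA made up less of the VFLP (au) libraries. Genes of the sarcomere, of calcium handling and of muscle fuel use together took 6.37%, 10.7% and 7.93% of gene reads in the control animals and 2.04%, 0.958% and 1.89% in the VFLP (au) animals. The means were 8.32 ± 2.17% and 1.63 ± 0.586% (SD, n = 3 animals each), a difference of -6.69 percentage points. Every VFLP (au) animal lay below every control animal, and the exact permutation test gave a two-sided p = 0.1, the smallest that 3 against 3 allows. Fewer muscle fibres in a sample and less muscle RNA per fibre cannot be told apart in bulk tissue, and the same holds for each cell type below. Right folds held more muscle reads than left folds in all 6 animals, with control folds at 2.11%, 9.35% and 5.67% on the left and 10.1%, 12.5% and 10.4% on the right. VFLP (au) folds held 1.23%, 0.322% and 0.425% on the left and 2.96%, 1.78% and 3.37% on the right. The left fold of control animal 1 thus lay inside the range of the VFLP (au) libraries, and it is set beside them for most gene groups that follow. That library was picked after its muscle share was seen and serves as a description with no test. Of all genes that fell, 25.9% were higher in it than in every VFLP (au) library, and of all that rose, 35.1% were lower in it than in every one. The counts for each list are to be read against these shares.

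**Figure D2:**
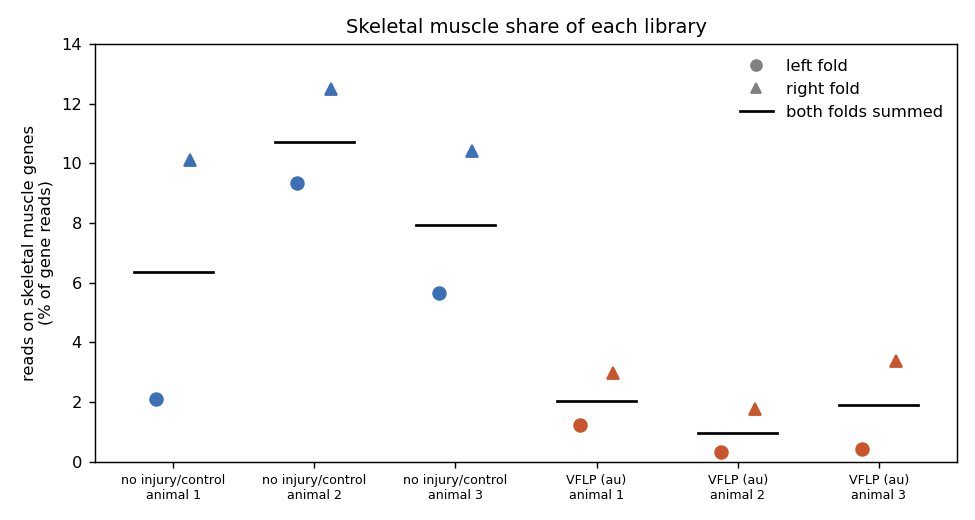
Reads on skeletal muscle genes as a percentage of gene reads, with circles for left folds, triangles for right folds and a bar for the summed folds of an animal. The 3 control animals lie at 6.37 to 10.7% and the 3 VFLP (au) animals at 0.958 to 2.04%, and the left fold of control animal 1, at 2.11%, lies among the VFLP (au) libraries.

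Genes of the contractile apparatus fell in VFLP (au) when groups alone were modelled. Their median changed sign with a batch term (0.43) or with each animal's muscle level as a covariate (0.25). That level is the mean log2 CPM of the sarcomere, calcium handling and muscle fuel genes themselves, so the move of their medians toward 0 follows from its make-up. Of 30 listed sarcomere genes 25 were tested, of which 20 fell and 0 rose, with a median log2 fold change of -2.85. MYH1, a fast myosin heavy chain, stood at 14606, 29836 and 16039 CPM in control and 2915, 1002 and 2223 CPM in VFLP (au) (log2 fold change -3.30, SE 0.68, adjusted p = 0.0052). The thick-filament organiser MYOM1 stood at 791, 1824 and 1371 CPM against 160, 88.5 and 162 CPM (log2 fold change -3.28, SE 0.58, adjusted p = 0.0024). In both genes every VFLP (au) animal lay below every control. MYH13, the myosin heavy chain known from extraocular and laryngeal muscle, had the largest fall of any gene named by the rule, from 1469, 2044 and 1099 CPM to 10.5, 5.94 and 40.5 CPM (log2 fold change -6.34, SE 1.20, adjusted p = 0.0033). Of 20 tested genes of excitation-contraction coupling, from a list of 21, 18 fell (median -2.65), among them the calcium channel CACNA1S, which went from 389, 618 and 574 CPM to 89.9, 38.9 and 79.9 CPM (log2 fold change -2.92, SE 0.59, adjusted p = 0.0046). Sarcolipin, SLN, the small inhibitor of the calcium pump, stood at 1323, 2781 and 1957 CPM against 323, 186 and 354 CPM (log2 fold change -2.81, SE 0.58, adjusted p = 0.005). The 20 sarcomere genes became 10 without VFLP (au) animal 2 or control animal 2. The 18 coupling genes became 10 without VFLP (au) animal 2 or control animal 2.

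Enzymes that fuel muscle followed, with 13 of 14 tested lower from a list of 15 (median -3.08). Aldolase A, ALDOA, a glycolytic enzyme, stood at 6985, 24494 and 13271 CPM in control and 2356, 1146 and 2400 CPM in VFLP (au) (log2 fold change -2.92, SE 0.48, adjusted p = 0.0018). PHKA1, a regulatory subunit of phosphorylase kinase, stood at 333, 741 and 455 CPM against 60.3, 31.2 and 70.3 CPM (log2 fold change -3.24, SE 0.46, adjusted p = 0.001). Of 13 tested genes of muscle stem cells and myogenic control, from a list of 15, 11 fell (median -2.10). They include PAX7, which marks satellite cells, at 3.45, 6.67 and 5.45 CPM against 1.21, 0.464 and 1 CPM (log2 fold change -2.54, SE 0.51, adjusted p = 0.0047), and myostatin, MSTN, which restrains muscle growth, at 58.3, 108 and 95.2 CPM against 6.12, 2.43 and 12.8 CPM (log2 fold change -3.62, SE 0.77, adjusted p = 0.0059). In the left fold of control animal 1, 0 of the 18 coupling genes that fell, 0 of the 13 fuel genes and 2 of the 20 sarcomere genes were above all 6 VFLP (au) libraries. That library was picked for its low muscle share, which these same lists make up, so their low counts follow from the choice. The 11 myogenic genes became 6 without VFLP (au) animal 2 or control animal 2 and 7 without VFLP (au) animal 3.

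For 3 of the 4 muscle lists the median changed sign when batch entered the model. A batch term rests on the single injury only animal that has a fold in each batch. The batch D fold of that animal, its right one, held 0.338% muscle reads, against 1.48 to 4.32% in the other injury only libraries. Batch, fold side and the muscle content of that fold thus cannot be told apart in this term. With the batch term the median was 0.43 for the sarcomere, 0.59 for coupling and 0.12 for myogenic control, and -0.03 for fuel enzymes. MYH1, MYOM1, CACNA1S and SLN were at log2 fold changes of 0.17, 0.17, 0.75 and 0.52 there. No gene of any kind passed in that fit (0 of 17815, with 1705 at an unadjusted p under 0.05, by edgeR). With each animal's mean muscle level as a covariate in place of batch the medians were 0.25, 0.34, 0.05 and -0.53 in the same order, and again 0 genes passed (1980 at an unadjusted p under 0.05). Sarcomere, coupling and fuel genes make up that level. For these lists the move toward 0 was therefore fixed in advance and says nothing about their fall. Over all genes, 99.6% of those that rose and 88.7% of those that fell kept their direction with the batch term, and 95.8% and 90.6% with the muscle level. These genes were called in the main fit of the same animals, so the shares are a description and no independent support. The muscle level was 8.03 to 9.29 in control animals and at most 7.16 in any other animal (injury only animal 3). Control thus did not overlap any other group in that level. A value with the muscle level, here or for any list, therefore cannot show whether a difference would hold at equal muscle content.

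**Figure D3:**
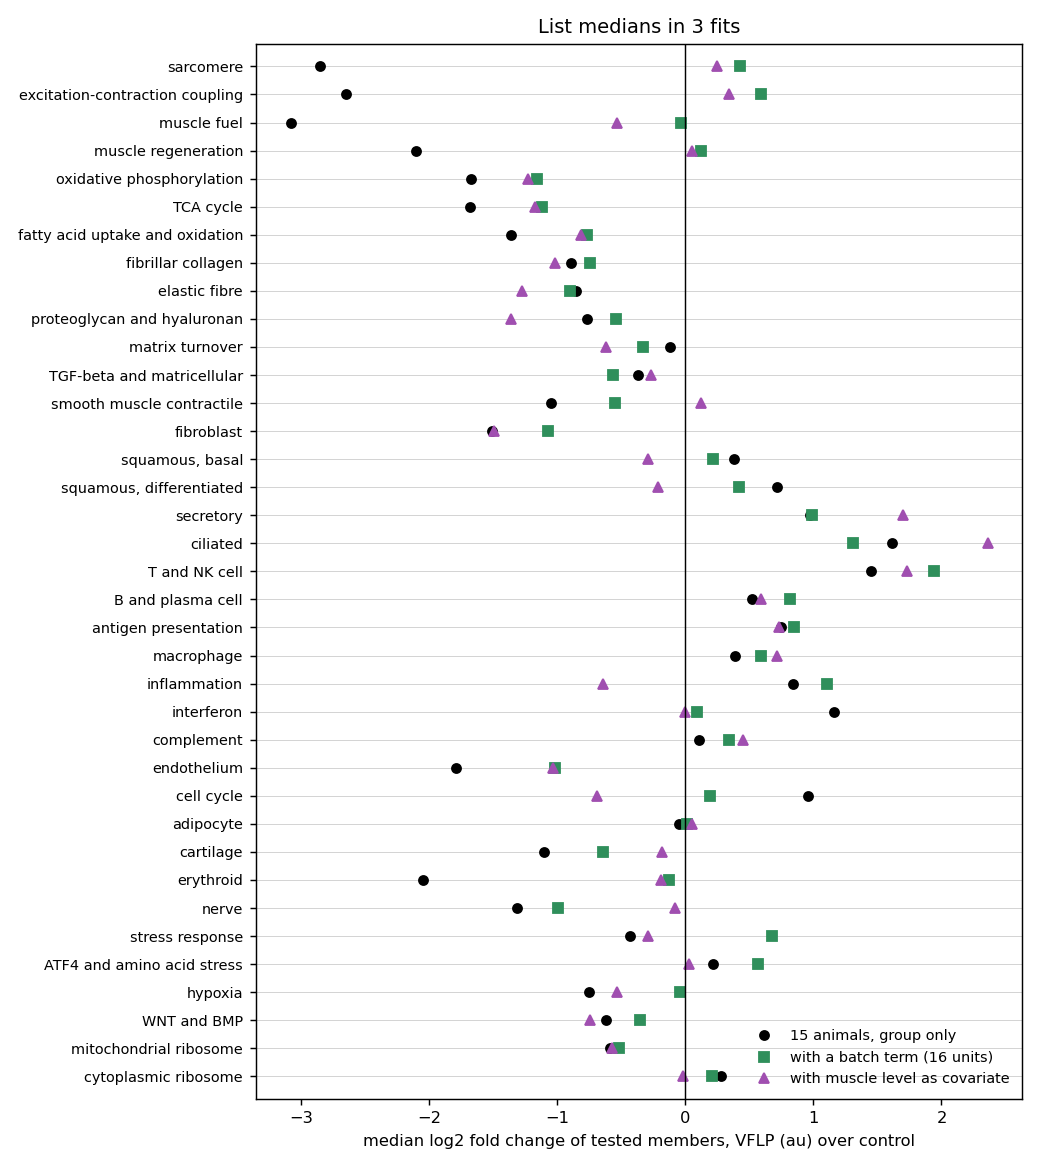
Median log2 fold change of the tested members of each gene list, VFLP (au) over control, from the fit of 15 animals by group (circles), with a batch term (squares) and with the muscle level as a covariate (triangles). The sarcomere median moves from -2.85 to 0.43 and 0.25, whereas that of oxidative phosphorylation moves from -1.67 to -1.16 and -1.23. Sarcomere, excitation-contraction coupling and muscle fuel genes make up the muscle level, so their triangles are drawn toward 0 by construction.

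Nuclear genes of the mitochondrial respiratory chain were lower without exception among those tested. All 24 tested of 32 listed fell (median -1.67). NDUFS1, the largest subunit of complex I, stood at 401, 869 and 590 CPM in control and at 172, 138 and 159 CPM in VFLP (au) (log2 fold change -1.99, SE 0.24, adjusted p = 0.00084). ATP5MC1, which makes part of the rotor of ATP synthase, stood at 257, 560 and 411 CPM against 111, 115 and 94.7 CPM (log2 fold change -1.94, SE 0.23, adjusted p = 0.00084). NDUFS7 and NDUFB5, both of complex I, had log2 fold changes of -2.0 and -1.75. The VFLP (au) animals were close to each other, with list levels of 6.46 to 6.55 as mean log2 CPM, while the controls spread from 7.54 to 8.68. The median stayed negative with the batch term (-1.16) and with the muscle level (-1.23), with no gene past the test in either. In the left fold of control animal 1 NDUFS1 stood at 212 CPM, inside the 109 to 214 CPM of the VFLP (au) libraries, and 2 of the 24 genes were above all 6 of them.

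The tricarboxylic acid cycle, which feeds that chain, gave 16 of 17 lower (median -1.68). The dehydrogenase subunit IDH3A stood at 191, 371 and 271 CPM in control and 79.8, 73.9 and 61.9 CPM in VFLP (au) (log2 fold change -1.95, SE 0.19, adjusted p = 0.00084). Fumarase, FH, and PDHA1 of the pyruvate dehydrogenase complex had log2 fold changes of -1.76 and -1.78. PDK4, which switches that complex off, was the single tested member that did not pass. COQ9, needed to make coenzyme Q, was among the 10 falls of smallest p, at 94.6, 179 and 136 CPM against 34.3, 28.1 and 29.2 CPM (log2 fold change -2.16, SE 0.22, adjusted p = 0.00084). Proteins of the mitochondrial ribosome, which translates the mitochondrial genome, fell in 18 of 29 (median -0.59). MRPS9 stood at 43.8, 92.8 and 63.6 CPM against 25.3, 26.7 and 27.6 CPM and MRPL12 at 56.9, 104 and 80.4 CPM against 37.7, 39.4 and 29.8 CPM, with log2 fold changes of -1.33 and -1.17. 3 of the 16 cycle genes and 4 of the 18 ribosomal genes were above all 6 VFLP (au) libraries in the left fold of control animal 1. Medians of both lists kept their sign with the batch term (-1.12 and -0.52) and with the muscle level (-1.17 and -0.57).

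Fatty acid handling was lower as well, in 19 of 24 tested of 26 listed (median -1.36). The fatty acid transporter CD36 stood at 64.9, 239 and 175 CPM in control and 11.1, 4.82 and 9.57 CPM in VFLP (au) (log2 fold change -4.23, SE 0.63, adjusted p = 0.0012). Its 6 control libraries ranged from 27.9 to 274 CPM and its 6 VFLP (au) libraries from 2.8 to 18.4 CPM, so that they did not overlap, and the lowest control value was again the left fold of animal 1. FABP4, a fatty acid carrier of fat cells and capillaries, stood at 16.6, 114 and 34.7 CPM against 1.63, 1.26 and 2.03 CPM (log2 fold change -5.07, SE 0.93, adjusted p = 0.0029). The acyl-CoA dehydrogenases ACADM and ACADVL had log2 fold changes of -2.04 and -1.36. Of 7 tested fat cell genes 1 rose and 1 fell: adiponectin, ADIPOQ, secreted by fat cells, stood at 31.5, 134 and 47.8 CPM against 21, 17.2 and 13.7 CPM (log2 fold change -2.04, SE 0.53, adjusted p = 0.015), whereas the transcription factor CEBPA, which epithelia also express, was higher (log2 fold change 0.64). CIDEC, a lipid droplet gene of fat cells, was at 0 in all 6 animals. SCD5, a desaturase, and FITM2, which acts in lipid droplet formation, were among the falls of smallest p, with log2 fold changes of -3.27 and -1.75. ADIPOQ missed the threshold without VFLP (au) animal 2 or 3 or control animal 2 (edgeR adjusted p 0.051 to 0.082). CEBPA missed the threshold without control animal 2 (edgeR adjusted p = 0.059).

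Blood vessel genes fell. Of 24 listed, 23 were tested and 19 fell, with 0 higher and a median of -1.79. CDH5, the cadherin of endothelial junctions, stood at 34.5, 137 and 65.4 CPM in control and 20.3, 9.42 and 15.4 CPM in VFLP (au) (log2 fold change -2.39, SE 0.46, adjusted p = 0.0038), and the receptor FLT1 at 36.6, 125 and 66.4 CPM against 19, 9.46 and 13.3 CPM (log2 fold change -2.45, SE 0.42, adjusted p = 0.0021). CA4, a carbonic anhydrase of capillary endothelium, stood at 2.67, 12.7 and 6.37 CPM against 0.105, 0.0742 and 0.171 CPM (log2 fold change -5.95, SE 0.84, adjusted p = 0.0014), and BTNL9, a butyrophilin-like gene, at 4.28, 15.7 and 9.17 CPM against 0.376, 0.297 and 0.683 CPM (log2 fold change -4.42, SE 0.69, adjusted p = 0.0014). The general markers PECAM1 and VWF were lower by less, with log2 fold changes of -1.96 (SE 0.43, adjusted p = 0.0070) and -1.80 (SE 0.50, adjusted p = 0.019). Neither of the lymphatic genes FLT4 and PROX1 passed the test. The list median was -1.02 with the batch term and -1.03 with the muscle level, although CA4 itself changed sign with the batch term (1.31). The left fold of control animal 1 had 16.3 CPM of CDH5, inside the 8.49 to 24.4 CPM of the VFLP (au) libraries, and 3 of the 19 genes were above all 6 of them. VFLP (au) levels of CA4 rest on few reads, at 0 to 0.361 CPM in single libraries. The 19 vessel genes became 9 without control animal 2 and 12 without VFLP (au) animal 2. VWF missed the threshold without VFLP (au) animal 2 or 3 or control animal 2 (edgeR adjusted p 0.06 to 0.1).

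**Figure D4:**
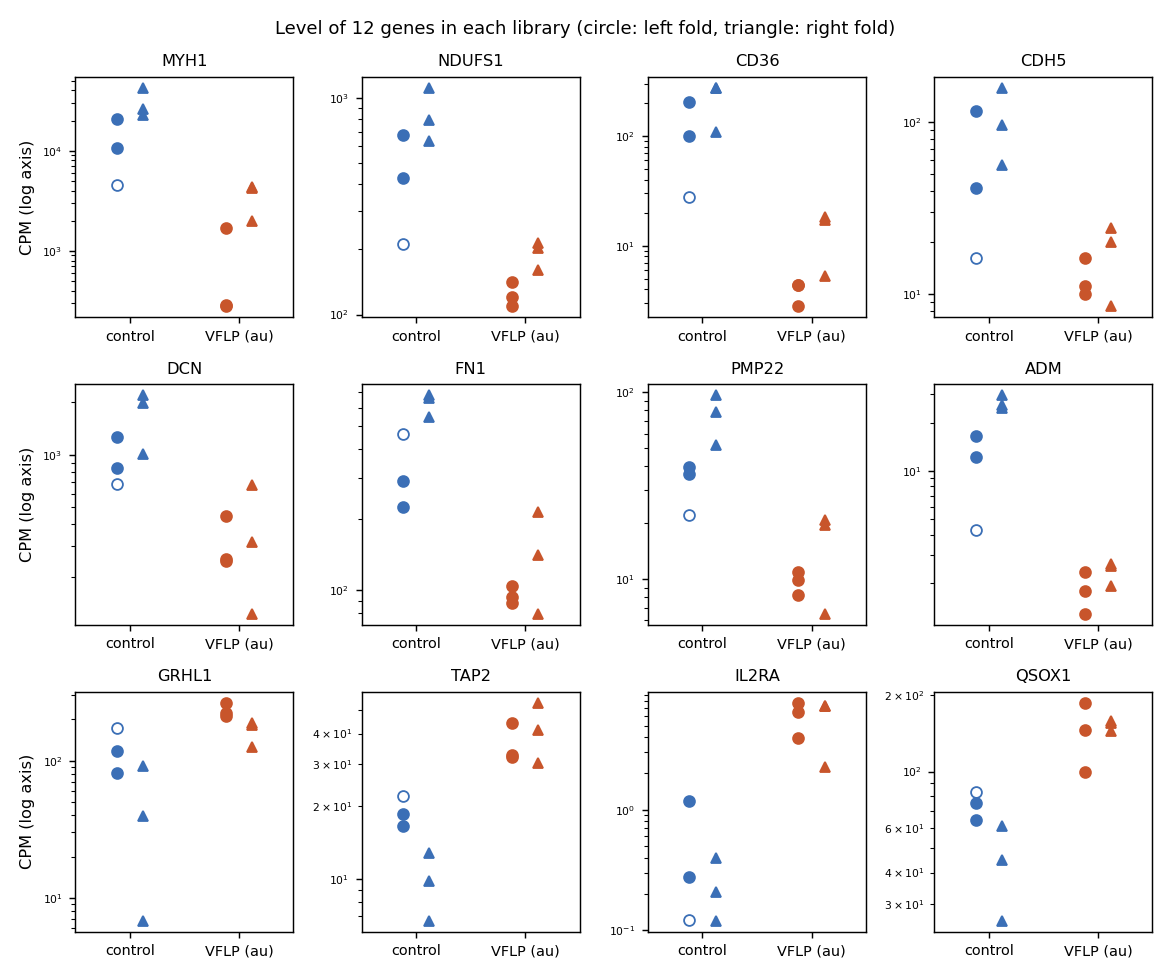
Level in CPM (log axis) of 12 genes in each of the 6 control and 6 VFLP (au) libraries, with circles for left folds, triangles for right folds and an open circle for the left fold of control animal 1. That library lies among the VFLP (au) libraries for NDUFS1 (212 CPM against 109 to 214 CPM) and CDH5 (16.3 CPM against 8.49 to 24.4 CPM), and apart from them for FN1 (465 CPM against 79.3 to 216 CPM) and TAP2 (22.1 CPM against 30.1 to 53.8 CPM).

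Fibroblast identity genes fell in 16 of 21 tested of 22 listed (median -1.51). PDGFRB, the platelet-derived growth factor receptor of fibroblasts and pericytes, stood at 49.4, 73.3 and 59.6 CPM in control and 18.5, 15.2 and 12.4 CPM in VFLP (au) (log2 fold change -1.98, SE 0.35, adjusted p = 0.0026). Its sister receptor PDGFRA stood at 44.9, 78.8 and 91.7 CPM against 23.3, 16.9 and 19.9 CPM (log2 fold change -1.84, SE 0.36, adjusted p = 0.0038). The chemokine CXCL12 stood at 30.1, 159 and 72.4 CPM against 16.3, 9.46 and 16.1 CPM (log2 fold change -2.64, SE 0.51, adjusted p = 0.0036), and CLEC3B, a secreted lectin of fibroblasts, at 10, 21 and 11.3 CPM against 4.16, 3.28 and 2.78 CPM (log2 fold change -2.05, SE 0.38, adjusted p = 0.0032). For each of these genes the groups did not overlap. The list median was -1.49 with the muscle level as a covariate and -1.07 with the batch term. 5 of the 16 were above all 6 VFLP (au) libraries in the left fold of control animal 1.

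Among the main collagen genes of scar COL1A1 and COL3A1 did not pass the test, while COL1A2 and other collagens did. COL1A1, a chain of type I collagen, stood at 179, 179 and 122 CPM in control and 130, 58.3 and 40.2 CPM in VFLP (au) (log2 fold change -1.07, SE 0.51, adjusted p = 0.13), so that the groups overlapped. COL3A1, the type III chain, stood at 650, 399 and 312 CPM against 370, 216 and 136 CPM (log2 fold change -0.92, SE 0.43, adjusted p = 0.13), also with overlap. Type VI collagen, a beaded network around cells, fell in all 3 tested chains: COL6A1 from 47.3, 53 and 44.5 CPM to 21.8, 16.5 and 10.9 CPM (log2 fold change -1.56, SE 0.35, adjusted p = 0.0077), with COL6A2 and COL6A3 at log2 fold changes of -1.56 and -2.30. Over the whole list of 24, 22 were tested, 12 fell and 0 rose (median -0.89). They include COL1A2, COL12A1, COL14A1, the chaperone SERPINH1 and the prolyl hydroxylases P4HA1 and P4HA2. COL1A2, the other chain of type I collagen, stood at 327, 369 and 261 CPM against 199, 114 and 85.6 CPM (log2 fold change -1.26, SE 0.42, adjusted p = 0.042). It missed the threshold without VFLP (au) animal 2 or 3 or control animal 1, 2 or 3 (edgeR adjusted p 0.054 to 0.12). COL12A1, whose groups overlapped, missed it without VFLP (au) animal 2 or 3 or control animal 1 or 3 (edgeR adjusted p 0.065 to 0.12). SERPINH1 missed it without VFLP (au) animal 3 or control animal 2 (edgeR adjusted p 0.063 to 0.077). COL14A1 missed it without VFLP (au) animal 2 (edgeR adjusted p = 0.067). LOX, a collagen cross-linker, stood at 19, 12.7 and 11.3 CPM against 13.9, 8.16 and 5.3 CPM and did not pass (log2 fold change -0.65, SE 0.39, adjusted p = 0.23). The collagen median was -0.74 with the batch term and -1.02 with the muscle level. Of these 12 genes 10 were higher in the left fold of control animal 1 than in every VFLP (au) library, against 25.9% of all genes that fell. The 12 collagen genes became 6 without VFLP (au) animal 2 or 3 and 7 without control animal 2.

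Among elastic fibre genes 9 of 16 fell (median -0.85). FBLN2, a fibulin of elastic fibres and basement membranes, stood at 24.9, 41.8 and 45.8 CPM in control and 10.3, 4.9 and 4.81 CPM in VFLP (au) (log2 fold change -2.49, SE 0.34, adjusted p = 0.00098), and the microfibril protein MFAP5 at 207, 352 and 343 CPM against 58.8, 72.2 and 60.4 CPM (log2 fold change -2.24, SE 0.38, adjusted p = 0.0021). FBLN5 and EMILIN1 had log2 fold changes of -1.36 and -1.48. Elastin itself did not pass, with ELN at 105, 89.6 and 112 CPM against 105, 70.4 and 43.8 CPM (log2 fold change -0.48, SE 0.37, adjusted p = 0.35), and the groups overlapped. The list medians were -0.90 with the batch term and -1.27 with the muscle level. 5 of the 9 were above all 6 VFLP (au) libraries in the left fold of control animal 1. The 9 elastic fibre genes became 5 without VFLP (au) animal 3.

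Proteoglycans and hyaluronan genes gave 7 lower and 1 higher of 19 tested from 22 listed (median -0.77). Decorin, DCN, which binds collagen fibrils, stood at 814, 1669 and 1329 CPM in control and 451, 312 and 284 CPM in VFLP (au) (log2 fold change -1.86, SE 0.35, adjusted p = 0.0033). Versican, VCAN, a large hyaluronan-binding proteoglycan, stood at 43, 85.2 and 43.7 CPM against 17.5, 12.6 and 15.6 CPM (log2 fold change -1.91, SE 0.41, adjusted p = 0.0061). HAS2, which makes hyaluronan, stood at 2.77, 5.44 and 3.48 CPM against 1.84, 0.649 and 1.49 CPM (log2 fold change -1.55, SE 0.49, adjusted p = 0.033). HAS3 did not pass, and the hyaluronidase HYAL2 was the member that rose (log2 fold change 0.73, SE 0.20, adjusted p = 0.020). HAS2 missed the threshold without VFLP (au) animal 2 or 3 or control animal 2 or 3 (edgeR adjusted p 0.056 to 0.13). HYAL2 missed the threshold without VFLP (au) animal 1 or 2 or control animal 2 or 3 (edgeR adjusted p 0.056 to 0.1). DCN was lower in each of the 6 VFLP (au) libraries than in each control library, at 123 to 670 CPM against 681 to 2194 CPM. OGN and PRELP, both small leucine-rich proteoglycans, had log2 fold changes of -1.42 and -1.86, while BGN, LUM and FMOD of the same family did not pass. 5 of the 8 called genes were beyond all 6 VFLP (au) libraries in the left fold of control animal 1. The list median was -0.54 with the batch term and -1.36 with the muscle level.

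Genes that turn matrix over gave 6 lower and 0 higher of 20 tested from 22 listed, and a median of -0.12, close to that of all genes. MMP2, a gelatinase made by fibroblasts, stood at 126, 144 and 105 CPM in control and 63.2, 39.9 and 31 CPM in VFLP (au) (log2 fold change -1.49, SE 0.36, adjusted p = 0.011), and TIMP4, a protease inhibitor, at 2.05, 3.06 and 1.68 CPM against 0.397, 0.334 and 0.317 CPM (log2 fold change -2.68, SE 0.50, adjusted p = 0.0031). ADAMTS5 and ADAMTS1, proteases that cut proteoglycans, had log2 fold changes of -2.51 and -1.77. The collagenase MMP1 was near 1 CPM or below in most animals, at 1.96, 0.0457 and 0.428 CPM against 1.23, 1.61 and 0.61 CPM (log2 fold change 0.46, SE 0.88, adjusted p = 0.72), and its direction changed between fits. 4 of the 6 genes that fell were above all 6 VFLP (au) libraries in the left fold of control animal 1.

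In the TGF-beta and matricellular list 8 of 21 fell and 1 rose (median -0.37). Fibronectin, FN1, an early scaffold of scar, stood at 551, 400 and 404 CPM in control and 153, 94.2 and 113 CPM in VFLP (au) (log2 fold change -1.91, SE 0.36, adjusted p = 0.0031). Its 6 control libraries, at 227 to 677 CPM, lay above all 6 VFLP (au) libraries, at 79.3 to 216 CPM. Periostin, POSTN, stood at 168, 134 and 116 CPM against 69.2, 53.6 and 63.2 CPM (log2 fold change -1.17, SE 0.28, adjusted p = 0.011). Among the ligands TGFB1 did not pass, at 9.61, 9.96 and 13.8 CPM against 11.8, 7.57 and 9.13 CPM (log2 fold change -0.22, SE 0.28, adjusted p = 0.57; 0.10 with the batch term), whereas TGFB3 fell (log2 fold change -1.19) and so did the co-receptor TGFBR3 (-1.08). SMAD2, a signal transducer of the pathway, was the member that rose, and CCN2, a common readout of the pathway, did not pass. Injury only animals, which share their control animals with this comparison, averaged 228 CPM of FN1 and 75.1 CPM of POSTN. The list median was -0.56 with the batch term and -0.27 with the muscle level, and 7 of the 9 called genes were beyond all 6 VFLP (au) libraries in the left fold of control animal 1. The 8 genes that fell became 4 without control animal 2 and 5 without VFLP (au) animal 2. TGFB3 missed the threshold without control animal 2 (edgeR adjusted p = 0.053). SMAD2 missed the threshold without VFLP (au) animal 2 or 3 or control animal 2 or 3 (edgeR adjusted p 0.052 to 0.12).

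Contractile genes of smooth muscle and myofibroblasts gave 4 lower of 14 (median -1.05). ACTA2, the smooth muscle actin that marks myofibroblasts and vessel walls, stood at 53, 77.1 and 63.8 CPM in control and 30.7, 23.7 and 42.1 CPM in VFLP (au) and did not pass (log2 fold change -1.01, SE 0.57, adjusted p = 0.2), although the groups did not overlap. The 4 that fell were LMOD1, TPM1, TPM2 and SYNPO2. TPM1, TPM2 and SYNPO2 are also made by skeletal muscle, and TPM1 stood at 2425, 5271 and 3084 CPM against 912, 543 and 730 CPM (log2 fold change -2.30, SE 0.37, adjusted p = 0.0016). LMOD1, a leiomodin of smooth muscle, stood at 38.6, 82.8 and 61.6 CPM against 6.44, 3.41 and 12 CPM (log2 fold change -3.07, SE 0.59, adjusted p = 0.0036). The list median changed sign with the muscle level as a covariate (0.12), as did ACTA2 (0.69), and was -0.55 with the batch term, where TPM2 changed sign (0.12). None of the 4 was above all 6 VFLP (au) libraries in the left fold of control animal 1.

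Nerve and Schwann cell genes passed the test in part. Of 13 tested nerve genes from 14 listed 5 fell (median -1.31). PMP22, a myelin protein, stood at 35.3, 54.1 and 64.1 CPM in control and 15.1, 8.53 and 14.1 CPM in VFLP (au) (log2 fold change -2.02, SE 0.31, adjusted p = 0.0014), and CDH19, a cadherin of Schwann cell precursors, at 7.77, 19.5 and 13.4 CPM against 0.815, 0.334 and 1.03 CPM (log2 fold change -4.22, SE 0.62, adjusted p = 0.0011). MBP and SOX10 did not pass, and SOX10, the transcription factor of Schwann cells, was at 7.44 CPM in VFLP (au) animal 3, above the 3 controls. The list median was -0.99 with the batch term and -0.08 with the muscle level. 4 of the 5 were above all 6 VFLP (au) libraries in the left fold of control animal 1.

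Some markers of other tissues that a dissection may carry fell. Of 15 tested cartilage genes from 18 listed 5 fell (median -1.10). They include CLEC3A, a cartilage lectin, at 22.7, 68.3 and 51.7 CPM in control and 1.07, 2.04 and 5.32 CPM in VFLP (au) (log2 fold change -4.08, SE 0.66, adjusted p = 0.0017), although the defining cartilage genes COL2A1, ACAN and MATN1 were near or at 0 in both groups. Of 8 tested red cell genes from 12 listed 4 fell (median -2.05). The globin HBB2 stood at 77.9, 259 and 188 CPM against 35.5, 39.3 and 48.1 CPM (log2 fold change -2.10, SE 0.64, adjusted p = 0.03) and turned positive with the muscle level as a covariate (0.32). Red cell genes took at most 0.0373% of the gene reads of an animal and cartilage genes at most 0.0135%, and their part in other differences was not tested. HBB2 missed the threshold without VFLP (au) animal 1, 2 or 3 or control animal 2 or 3 (edgeR adjusted p 0.062 to 0.11). The 5 cartilage genes became 2 without VFLP (au) animal 2 or control animal 2 and 3 without VFLP (au) animal 3. The 4 red cell genes became 0 without VFLP (au) animal 1 or control animal 3, 1 without VFLP (au) animal 3 or control animal 2 and 2 without VFLP (au) animal 2.

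Of 23 tested genes of the differentiated squamous layers of the epithelium, from 25 listed, 3 rose and 0 fell (median 0.72), a share near the 10.8% of all genes that rose. GRHL1, a transcription factor of barrier epithelium, stood at 130, 55.9 and 87.3 CPM in control and 230, 199 and 178 CPM in VFLP (au) (log2 fold change 1.15, SE 0.29, adjusted p = 0.013). Sciellin, SCEL, a cornified envelope protein, stood at 1073, 590 and 805 CPM against 2055, 1426 and 1496 CPM (log2 fold change 1.01, SE 0.29, adjusted p = 0.021), and the transcription factor KLF4 at 186, 146 and 205 CPM against 369, 285 and 281 CPM (log2 fold change 0.80, SE 0.25, adjusted p = 0.034). KRT13, the partner of KRT4 in this epithelium, stood at 8604, 4590 and 6857 CPM against 12469, 13081 and 8647 CPM and did not pass (log2 fold change 0.77, SE 0.32, adjusted p = 0.095; -0.17 with the muscle level). Squamous genes took 0.131 to 2.92% of reads in control libraries and 1.7 to 4.47% in VFLP (au) libraries, and the ranges overlapped. Their median became -0.21 with the muscle level and 0.42 with the batch term, and none of the 3 genes that rose was lower in the left fold of control animal 1 than in every VFLP (au) library. The 3 squamous genes became 0 without control animal 2, 1 without VFLP (au) animal 1 and 8 without control animal 1. GRHL1 missed the threshold without control animal 2 (edgeR adjusted p = 0.056). SCEL missed the threshold without VFLP (au) animal 1 or control animal 2 or 3 (edgeR adjusted p 0.061 to 0.099). KLF4 missed the threshold without VFLP (au) animal 1 or 2 or control animal 1 or 2 (edgeR adjusted p 0.054 to 0.15).

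Of 14 tested basal cell genes from 15 listed, 0 rose and 1 fell (median 0.38), namely plectin, PLEC, a cytoskeletal linker that muscle also makes (log2 fold change -1.04). KRT5, the keratin of basal cells, stood at 1516, 677 and 1635 CPM in control and 1689, 1918 and 1217 CPM in VFLP (au). KRT15, another keratin of basal cells, stood at 867, 472 and 637 CPM against 1169, 1143 and 867 CPM and did not pass (log2 fold change 0.69, SE 0.26, adjusted p = 0.071). The median was 0.22 with the batch term and -0.29 with the muscle level. It was 0.03 in left folds alone and 1.18 in right folds alone.

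Secretory epithelium gave 4 higher and 0 lower of 19 tested from 22 listed (median 0.97). The membrane mucin MUC4 stood at 316, 172 and 321 CPM in control and 825, 510 and 457 CPM in VFLP (au) (log2 fold change 1.15, SE 0.37, adjusted p = 0.038), the water channel AQP5 at 1068, 456 and 702 CPM against 1574, 1850 and 1392 CPM (log2 fold change 1.11, SE 0.31, adjusted p = 0.019) and the transcription factor FOXA1 at 27.8, 14.5 and 24.4 CPM against 43.6, 35.1 and 55.2 CPM (log2 fold change 1.00, SE 0.24, adjusted p = 0.01). ELF3, an epithelial transcription factor, had a log2 fold change of 0.91. None of the 4 was lower in the left fold of control animal 1 than in every VFLP (au) library. The gland products BPIFB1 and SCGB1A1 did not pass. The list took 0.8 to 6.56% of reads in VFLP (au) libraries and 0.0471 to 2.32% in control libraries. Its median stayed positive with the batch term (0.99) and the muscle level (1.70). By fold it was 0.05 in left folds alone and 2.25 in right folds alone, so the rise lay mostly in right folds. Ciliated cell genes, tested for 22 of 26, gave 0 calls by edgeR, DESeq2 or limma voom, with 2 members at an unadjusted p under 0.05 and a median of 1.61. DNAH5, a ciliary dynein, stood at 0.455, 1.69 and 46.1 CPM in control and 18.4, 0.13 and 77.4 CPM in VFLP (au). The 4 secretory genes became 2 without VFLP (au) animal 2 or control animal 2 or 3. MUC4 missed the threshold without VFLP (au) animal 1 or 2 or control animal 2 or 3 (edgeR adjusted p 0.058 to 0.16). AQP5 missed the threshold without VFLP (au) animal 2 or control animal 2 or 3 (edgeR adjusted p 0.061 to 0.077).

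**Figure D5:**
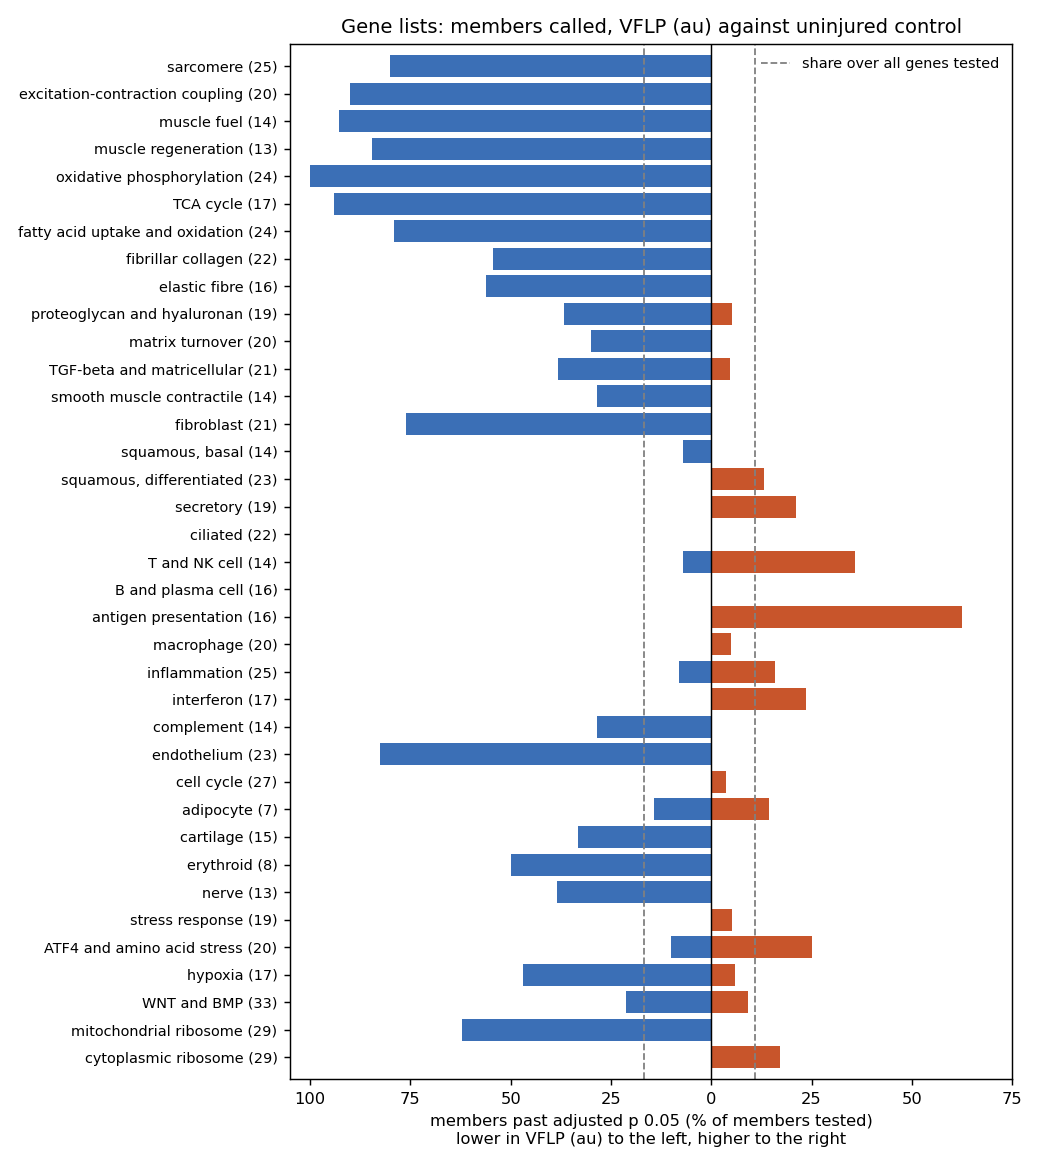
Share of tested members of each gene list past an adjusted p of 0.05, as a percentage, lower in VFLP (au) to the left and higher to the right, with the number tested in brackets and dashed lines at the shares over all genes (16.7% lower and 10.8% higher). All 24 oxidative phosphorylation genes tested are lower, and 10 of 16 antigen presentation genes are higher.

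Antigen presentation was the list with the highest share of members that rose among the 37. Of 16 tested from 17 listed, 10 rose and 0 fell (median 0.75), against 10.8% of all genes. TAP2, which moves peptides into the endoplasmic reticulum for class I molecules, stood at 17.2, 13.4 and 15.2 CPM in control and 31.3, 41.7 and 43 CPM in VFLP (au) (log2 fold change 1.34, SE 0.23, adjusted p = 0.0021). PSMB10, a subunit of the immunoproteasome that cuts those peptides, stood at 5.46, 5.3 and 6.8 CPM against 10.2, 14.6 and 11.7 CPM (log2 fold change 1.06, SE 0.18, adjusted p = 0.0023). All 6 VFLP (au) libraries lay above all 6 control libraries for both genes. The peptide editor TAPBP had a log2 fold change of 0.65. Its relative TAPBPL, TAP1, PSMB8, PSMB9, and the regulators NLRC5, RFX5 and CIITA also rose, while B2M and the class II chaperone CD74 did not pass. CD74 stood at 80.6, 68.3 and 67.5 CPM in control and 69.9, 137 and 168 CPM in VFLP (au). The list median was 0.85 with the batch term and 0.73 with the muscle level, with no gene past the test in either. 7 of the 10 were below all 6 VFLP (au) libraries in the left fold of control animal 1. The 10 antigen presentation genes became 4 without control animal 2, 5 without VFLP (au) animal 2 or 3 and 6 without control animal 3. CIITA and PSMB9 missed the threshold without VFLP (au) animal 2 or 3 or control animal 1, 2 or 3 (edgeR adjusted p 0.07 to 0.13). NLRC5 did so without VFLP (au) animal 2 or 3 or control animal 1 or 3. RFX5 did so without VFLP (au) animal 2 or 3 or control animal 2 or 3. TAP1, PSMB8 and TAPBPL did so without control animal 2 (edgeR adjusted p 0.052 to 0.078). TAP1 also did without VFLP (au) animal 2 and PSMB8 without VFLP (au) animal 3.

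Interferon-stimulated genes gave 4 higher and 0 lower of 17 tested from 30 listed (median 1.16). IFIH1, a sensor of viral RNA, stood at 35.9, 28.1 and 28.2 CPM in control and 50.8, 85.4 and 75.2 CPM in VFLP (au) (log2 fold change 1.20, SE 0.26, adjusted p = 0.0061), and OASL, an antiviral gene, at 7.5, 9.55 and 3.68 CPM against 21.7, 50.5 and 33.1 CPM (log2 fold change 2.35, SE 0.63, adjusted p = 0.016). IFI44L and ISG20, both induced by interferon, also rose, ISG20 from a low level (means 0.136 CPM in control and 0.868 CPM in VFLP (au)). In 12 of the 17 every VFLP (au) animal lay above every control, against 20.8% of all genes. Their median fell to 0.09 with the batch term and to 0.00 with the muscle level. All 4 were lower in the left fold of control animal 1 than in every VFLP (au) library. PARP12, an antiviral ADP-ribosyltransferase, was among the 10 rises of smallest p, at 69.4, 45.5 and 60 CPM against 132, 144 and 135 CPM (log2 fold change 1.23, SE 0.16, adjusted p = 0.00084). The 4 interferon-stimulated genes became 1 without VFLP (au) animal 2 or control animal 3. OASL missed the threshold without VFLP (au) animal 2 or control animal 3 (edgeR adjusted p 0.059 to 0.061). IFI44L missed it without VFLP (au) animal 2 or 3 or control animal 1 or 3 (edgeR adjusted p 0.052 to 0.083). ISG20 missed it without VFLP (au) animal 2 or control animal 2 or 3 (edgeR adjusted p 0.054 to 0.098).

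Some T cell genes rose, all of them from low levels. Of 14 tested T and natural killer cell genes, from 21 listed, 5 rose and 1 fell (median 1.45). IL2RB, a chain of the interleukin-2 receptor, stood at 0.455, 0.365 and 0.514 CPM in control and 1.07, 3.23 and 2.27 CPM in VFLP (au) (log2 fold change 2.28, SE 0.39, adjusted p = 0.0022). FOXP3, the transcription factor of regulatory T cells, stood at 0.145, 0.0457 and 0.0857 CPM against 0.334, 1.13 and 0.683 CPM (log2 fold change 2.84, SE 0.52, adjusted p = 0.003), and the kinase LCK at 0.93, 0.731 and 0.999 CPM against 1.57, 2.36 and 2.49 CPM (log2 fold change 1.26, SE 0.27, adjusted p = 0.0065). CD3E, a chain of the T cell receptor complex, stood at 0.227, 0.0457 and 0.143 CPM against 0.125, 0.946 and 1.05 CPM, so that the groups overlapped (log2 fold change 2.24, SE 0.77, adjusted p = 0.048). TBX21, the regulator of type 1 T cells, fell, from 0.537, 1.92 and 1.57 CPM to 0.0418, 0.297 and 0.342 CPM (log2 fold change -2.54, SE 0.72, adjusted p = 0.021), and changed sign with the batch term (4.13). IL2RA, the high-affinity chain of the same receptor stood at 0.248, 0.228 and 0.799 CPM against 3.16, 6.86 and 7.54 CPM (log2 fold change 3.76, SE 0.88, adjusted p = 0.009), and TNFRSF18, a costimulatory receptor of regulatory T cells, at 0.744, 0.365 and 0.714 CPM against 3.76, 3.67 and 1.76 CPM (log2 fold change 2.31, SE 0.54, adjusted p = 0.0093). HCLS1, a signalling adaptor of blood cells, stood at 2.6, 5.62 and 5.31 CPM against 17.5, 17.7 and 31 CPM (log2 fold change 2.29, SE 0.53, adjusted p = 0.0086). 2 of the 6 called genes were beyond all 6 VFLP (au) libraries in the left fold of control animal 1. The list median stayed above 1 with the batch term (1.94) and the muscle level (1.73). The 5 T cell genes became 3 without VFLP (au) animal 2 or 3 or control animal 2 or 3. CD3E missed the threshold without VFLP (au) animal 2 or 3 or control animal 2 or 3 (edgeR adjusted p 0.11 to 0.17). TBX21 missed the threshold without VFLP (au) animal 1 or control animal 2 or 3 (edgeR adjusted p 0.051 to 0.079).

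B and plasma cell genes gave 0 calls of 16 by edgeR and 1 by DESeq2 or limma voom, with 3 at an unadjusted p under 0.05 (median 0.52). BLNK, a B cell signalling adaptor, had the smallest p (log2 fold change 0.79, SE 0.30, adjusted p = 0.064). Of 20 tested macrophage genes from 23 listed 1 rose (median 0.39), the lysosomal marker CD68, at 24.6, 17.1 and 22.1 CPM in control and 40.3, 44.3 and 33.3 CPM in VFLP (au) (log2 fold change 0.88, SE 0.29, adjusted p = 0.04), which turned negative with the muscle level (-0.15). In the inflammation list 4 of 25 tested rose and 2 fell, against 10.8% and 16.7% of all genes (median 0.84, or -0.64 with the muscle level). IL18, a cytokine that epithelium stores, stood at 132, 58.2 and 103 CPM against 236, 270 and 246 CPM (log2 fold change 1.35, SE 0.23, adjusted p = 0.0021), with all 6 VFLP (au) libraries above all 6 control libraries. S100A9, a calgranulin of neutrophils and of activated epithelium, stood at 24.1, 11.4 and 10.4 CPM against 53.3, 271 and 73.8 CPM (log2 fold change 3.11, SE 1.05, adjusted p = 0.044) and turned negative with the muscle level (-0.46). CXCL11, a T cell chemokine, and the chemokine CCL4 also rose (log2 fold changes 3.06 and 2.89), while the macrophage growth factors CSF1 and IL34 fell, with log2 fold changes of -0.75 and -1.27. TNF, IL1B and PTGS2 did not pass. Complement gave 4 lower of 14, with 19 listed (median 0.11). They were C1R, C1S, C7 and the inhibitor SERPING1, with C1S at 129, 206 and 149 CPM against 71.8, 84.4 and 69.5 CPM (log2 fold change -1.10, SE 0.24, adjusted p = 0.0072). C7 changed sign with the batch term (0.42). The 4 inflammation genes that rose became 1 without VFLP (au) animal 2 or control animal 2 or 3 and 2 without VFLP (au) animal 3 or control animal 1. C1R missed the threshold without VFLP (au) animal 2 or 3 or control animal 2 (edgeR adjusted p 0.057 to 0.076). CD68 missed the threshold without VFLP (au) animal 1, 2 or 3 or control animal 2 or 3 (edgeR adjusted p 0.052 to 0.18). S100A9 missed the threshold without VFLP (au) animal 2 or 3 or control animal 1, 2 or 3 (edgeR adjusted p 0.054 to 0.18). CXCL11 missed the threshold without VFLP (au) animal 2 or 3 or control animal 1, 2 or 3 (edgeR adjusted p 0.058 to 0.1). CCL4 missed the threshold without VFLP (au) animal 2 or control animal 2 or 3 (edgeR adjusted p 0.12 to 0.25). CSF1 missed the threshold without VFLP (au) animal 1 or 3 (edgeR adjusted p 0.054 to 0.066). IL34 missed the threshold without VFLP (au) animal 2 or 3 or control animal 2 (edgeR adjusted p 0.073 to 0.13).

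Of 17 tested genes that low oxygen induces, 8 fell and 1 rose (median -0.75). Adrenomedullin, ADM, a vasodilator peptide, stood at 13.6, 22.1 and 18.2 CPM in control and 2.17, 2.17 and 1.93 CPM in VFLP (au) (log2 fold change -3.10, SE 0.37, adjusted p = 0.00084), and every VFLP (au) library, at 1.29 to 2.63 CPM, lay below every control library, at 4.27 to 29.6 CPM. Carbonic anhydrase CA9 stood at 14.6, 23.8 and 9.88 CPM against 2.3, 0.724 and 1.1 CPM (log2 fold change -3.55, SE 0.54, adjusted p = 0.0013), although it changed sign with the batch term (1.55), and EGLN3, an oxygen sensor, at 12.7, 35.9 and 40 CPM against 3.62, 4.58 and 5.2 CPM (log2 fold change -2.72, SE 0.53, adjusted p = 0.0039). The glucose transporter SLC2A1 was the member that rose, at 54.3, 31.2 and 51.4 CPM against 104, 89.4 and 75.2 CPM (log2 fold change 0.97, SE 0.23, adjusted p = 0.010). 4 of the 9 called genes were beyond all 6 VFLP (au) libraries in the left fold of control animal 1. The list median was -0.04 with the batch term and -0.53 with the muscle level.

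Wnt, BMP and retinoid genes gave 7 lower and 3 higher of 33 tested from 37 listed (median -0.62), shares not far from the 16.7% and 10.8% of all genes. FRZB, a secreted Wnt antagonist, stood at 192, 375 and 274 CPM in control and 35.4, 53 and 50.8 CPM in VFLP (au) (log2 fold change -2.59, SE 0.50, adjusted p = 0.0037). AXIN2, a feedback target of Wnt signalling, stood at 16.4, 32.4 and 19.4 CPM against 12.1, 8.35 and 9.64 CPM (log2 fold change -1.18, SE 0.29, adjusted p = 0.011), and RSPO3, which amplifies Wnt signals, at 4.88, 12.4 and 8.08 CPM against 3.26, 2.86 and 2.54 CPM (log2 fold change -1.55, SE 0.37, adjusted p = 0.01). The ligand WNT4 rose, from 41.2, 29.6 and 32.9 CPM to 80.5, 91.1 and 59.9 CPM (log2 fold change 1.16, SE 0.25, adjusted p = 0.0064), as did the ligand WNT10A. 1 of the 10 was beyond all 6 VFLP (au) libraries in the left fold of control animal 1. All 10 kept their direction with the batch term and with the muscle level, as did 88.7 to 99.6% of all genes that rose or fell. The 7 genes that fell became 4 without VFLP (au) animal 2. WNT10A missed the threshold without VFLP (au) animal 1 or 2 or control animal 2 (edgeR adjusted p 0.051 to 0.068).

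In the ATF4 list, which covers the response to amino acid stress, 5 of 20 rose and 2 fell (median 0.22). ATF4, the transcription factor of the amino acid stress response, stood at 28.7, 29.2 and 35.9 CPM in control and 54.3, 51.3 and 40.9 CPM in VFLP (au) (log2 fold change 0.64, SE 0.14, adjusted p = 0.0068), and its target SESN2 had a log2 fold change of 0.98. VLDLR, a lipoprotein receptor that muscle also makes, fell (log2 fold change -3.03, SE 0.58, adjusted p = 0.0035). Immediate early and heat shock genes gave 1 higher of 19, the co-chaperone DNAJB1, at 47.3, 32.1 and 52.1 CPM against 107, 69.2 and 59.6 CPM (log2 fold change 0.84, SE 0.24, adjusted p = 0.023). FOS, an immediate early gene that handling induces, stood at 22.6, 239 and 8.65 CPM against 6.31, 11.3 and 19.2 CPM and did not pass, with 1 control animal far above the rest. Of 27 cell cycle genes 1 rose, TYMS, which makes thymidylate (median 0.96, or -0.69 with the muscle level). Its 3 VFLP (au) animals stood at 18.9, 51.2 and 18.6 CPM against 14.3, 12.9 and 11.8 CPM in control (log2 fold change 1.19, SE 0.40, adjusted p = 0.042), and MKI67, a marker of dividing cells, at 12, 32.8 and 11.7 CPM against 12.6, 8.04 and 8.42 CPM, with animal 2 the highest in both. Cytoplasmic ribosomal proteins gave 5 higher of 29, against 10.8% of all genes (median 0.28, or -0.02 with the muscle level). RPL28 stood at 101, 134 and 133 CPM against 193, 187 and 197 CPM (log2 fold change 0.65, SE 0.16, adjusted p = 0.011), with all 6 VFLP (au) libraries above all 6 control libraries. The 5 ATF4 list genes became 2 without VFLP (au) animal 2 or control animal 2 or 3. The 5 ribosomal genes became 1 without VFLP (au) animal 2 and 2 without VFLP (au) animal 1 or control animal 2 or 3. DNAJB1 missed the threshold without VFLP (au) animal 1 or control animal 2 (edgeR adjusted p 0.1 to 0.11). TYMS missed the threshold without VFLP (au) animal 2 or control animal 1, 2 or 3 (edgeR adjusted p 0.066 to 0.24).

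Over the 37 lists together, 50 of 706 tested members rose and 259 fell, from 803 listed genes. These lists were drawn up around tissue layers and so do not sample all genes evenly.

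The largest rises outside the lists were mostly of genes near absence in control. CRHBP, a binding protein of corticotropin-releasing hormone, had 0 reads in the 3 control animals and stood at 2.59, 3.14 and 1.1 CPM in VFLP (au), at least 83.1-fold higher with 3 counts over the control group in place of 0. Its VFLP (au) libraries ranged from 0.0319 to 7.35 CPM, and injury only animals averaged 8.56 CPM. ANKRD1, an ankyrin repeat protein that stretched or injured muscle induces, stood at 0.558, 0.365 and 0.114 CPM against 12.2, 13.9 and 10.9 CPM (log2 fold change 5.11, SE 1.56, adjusted p = 0.03), with an injury only mean of 55.6 CPM. MKX, a transcription factor of tendon, stood at 0.372, 0.411 and 0.114 CPM against 5.69, 1.19 and 1.46 CPM (log2 fold change 3.22, SE 0.78, adjusted p = 0.011). ALOX12, a lipoxygenase of platelets and epithelium, stood at 6.39, 3.11 and 5.25 CPM against 25.1, 16.5 and 26.3 CPM (log2 fold change 2.20, SE 0.27, adjusted p = 0.00084). For ALOX12 and MKX the groups did not overlap. ANKRD1 missed the threshold without VFLP (au) animal 1 or 2 or control animal 1, 2 or 3 (edgeR adjusted p 0.054 to 0.1). CRHBP missed the threshold without control animal 2 or 3 (edgeR adjusted p 0.05 to 0.057).

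The rises of smallest p were of moderate size. QSOX1, a secreted enzyme that forms disulphide bonds, stood at 62.9, 59.4 and 64.4 CPM in control and 173, 152 and 122 CPM in VFLP (au) (log2 fold change 1.26, SE 0.16, adjusted p = 0.00084), and all 6 VFLP (au) libraries, at 99.9 CPM or more, lay above all 6 control libraries, at 82.7 CPM or less. TMCO3, a predicted ion antiporter, stood at 15.5, 11.7 and 15 CPM against 37.1, 42.9 and 40.1 CPM (log2 fold change 1.5, SE 0.19, adjusted p = 0.00084), and DAPK1, a death-associated kinase, at 62.6, 49.1 and 67.7 CPM against 153, 133 and 131 CPM (log2 fold change 1.22, SE 0.16, adjusted p = 0.00084). MAML3, a coactivator of Notch signalling, had a log2 fold change of 1.54, B4GALT3, a galactosyltransferase, of 1.20, and DIP2A of 1.16.

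Large falls outside the lists again include muscle and vessel genes. MYH6, a myosin heavy chain best known from heart, stood at 305, 1394 and 621 CPM in control and 2.19, 19.6 and 102 CPM in VFLP (au) (log2 fold change -4.23, SE 1.34, adjusted p = 0.035). TCF15, a transcription factor of capillary endothelium, stood at 2.48, 8.59 and 6.6 CPM against 0.209, 0.13 and 0.171 CPM (log2 fold change -5.09, SE 0.75, adjusted p = 0.0012), which changed sign with the batch term (2.50). VEPH1 had the smallest p of the falls and stood at 13, 7.95 and 8.14 CPM against 0.732, 0.816 and 0.61 CPM (log2 fold change -3.74, SE 0.33, adjusted p = 0.00084), with every VFLP (au) library at 1.28 CPM or less and every control library at 3.17 CPM or more. ATP2A2, the calcium pump of slow muscle and of many other cells, stood at 1708, 1901 and 1678 CPM against 748, 641 and 612 CPM (log2 fold change -1.40, SE 0.13, adjusted p = 0.00084). CCNG1 and NDRG4 had log2 fold changes of -1.79 and -2.31. MYH6 missed the threshold without VFLP (au) animal 1 or 2 or control animal 2 or 3 (edgeR adjusted p 0.054 to 0.11).

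Comparisons with the other injured groups, from the same fit, give the setting of these values. VFLP (au) against injury only gave 0 of 17770 genes by edgeR (2289 at an unadjusted p under 0.05), against Col1 0 genes (838 unadjusted) and against VFLP (man) 7 genes (0.0394% of those tested), all higher in VFLP (au). Injury only against control gave 4138 genes (23.3%), Col1 against control 5702 (32.1%) and VFLP (man) against control 6623 (37.3%), and these share their 3 control animals with the comparison described here. The muscle share was 2.4 ± 0.859% in injury only, 0.933 ± 0.395% in Col1 and 0.434 ± 0.293% in VFLP (man) (SD, n = 3 animals each), each below that of control.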

How the data were processed

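Expression was read from gene tables of 30 libraries, 2 folds from each of 15 rabbits, 3 rabbits in each of 5 groups. Each table holds read counts, not normalized, as the authors deposited them. Reads were aligned with STAR 2.7.10b per the submitters' processing notes, and its tables list counts without strand and for each strand, of which the strand of the second read was used. Which build and annotation were used is not given in the sources used here. Library input was 100 ng of RNA (integrity above 7), amplified over 15 cycles, per the labels' protocols. The 4 lines that name no gene were left out of library sizes. Their reads on no feature made up 7.51 to 18.2% of uniquely mapped reads in the 12 libraries.

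Both folds were summed, genes were filtered with filterByExpr (minimum count 10) and TMM factors were computed over the 15 animals. edgeR 4.0.16 (R 4.3.3) fitted a quasi-likelihood model by group with 10 residual degrees of freedom, which has no batch term, with Benjamini-Hochberg adjustment over all 17770 genes and a threshold of 0.05. SE is the log2 fold change divided by the square root of F, an approximation. CPM per library or animal use the TMM factors. The share of reads on muscle genes, from the sarcomere, coupling and fuel lists, was compared by an exact permutation test over animals. limma 3.58.1 (voom), DESeq2 1.42.0, other filters, single folds, a batch term, a replicate block, the muscle level as a covariate and leaving out each animal were alternatives. The muscle level of an animal was the mean log2 CPM of the tested genes of the sarcomere, coupling and fuel lists. The fit was tested on simulated data with known changes. Symbols are those of the files, of which 15765 were found in RefSeq.

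The 37 gene lists and the comparison were chosen with earlier results of these data known. Genes were named by rule: the 15 largest changes in each direction and the 10 of smallest p among called genes with a symbol, at least 1 CPM on average and groups that do not overlap, up to 4 members of each list by smallest p, and 10 scar and matrix genes. Other genes named are cell type markers or were chosen after their values were seen. Some genes are not reported here. Promoter motifs were planned and are not analysed here.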

Additional observations from a re-analysis of the deposited data

Results flagged for a closer look

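Of 22 library quantities checked for a library far from the other 5 of its group, 3 had one, and chance gives that in about 1 in 20 groups. Secretory genes took 6.56% of reads in the right fold of VFLP (au) animal 3, against 0.8 to 1.21% in the other VFLP (au) libraries. Ciliated cell genes took 0.0665% in the same library, against 0.00333 to 0.0253% in the others, and 0.03% in the right fold of control animal 3, against 0.00143 to 0.00401% in the other control libraries.

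The difference between right and left folds differed between the groups for 108 genes by edgeR in a fit of the 30 libraries with a term for each animal, of which 104 had the higher right-minus-left difference in VFLP (au). Within control 5285 genes differed between the folds, 2371 higher and 2914 lower on the right. Within VFLP (au) 0 genes differed by edgeR, with 1769 at an unadjusted p under 0.05.

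Reads on no feature, which no comparison here uses, made up at least 10.8% of uniquely mapped reads in every VFLP (au) library (10.8 to 18.2%) and 7.51 to 9.26% in control libraries. Their origin was not tested.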

How the results depend on the processing

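The 4884 genes called numbered 2670 with the 6 animals alone, 7503 with libraries as separate samples, 1706 in left folds, 0 with the batch term, 0 with the muscle level as a covariate and 2528 to 5549 with 1 animal left out. The 309 list members called numbered 180 in left folds, 0 with the batch term, 0 with the muscle level and 203 to 327 with 1 animal left out. The other alternatives gave 4185 to 5959 genes, among them 4674 with KEF51 and muscle rows left out (1439 higher and 3235 lower). The muscle share difference of -6.69 points was -3.83 from the sarcomere list alone, -5.05 in left folds, -8.31 in right folds, -7.66 to -5.52 with 1 animal left out, and -8.54 with KEF51 rows left out of the total, which was chosen after seeing the data. A replicate block, for which same-numbered animals correlated at -0.11, 0.11 and 0.36 and so share only a number, gave 4465 genes, 295 list members and -6.69 points. Leaving out the control library of lowest depth, also chosen after seeing the data, gave 4472 genes.

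Of 147 called genes named in the text, 104 stayed past the threshold without each animal in turn, DESeq2 kept 147 and limma voom 134, and none kept its call with the batch term or muscle level. With the batch term these changed sign on the log2 scale: C7 0.42, CA4 1.31, CA9 1.55, CACNA1S 0.75, MMP1 -0.54, MYH1 0.17, MYOM1 0.17, SLN 0.52, TBX21 4.13, TCF15 2.50, TGFB1 0.10 and TPM2 0.12. With the muscle level these did: ACTA2 0.69, CD68 -0.15, HBB2 0.32, KRT13 -0.17, MMP1 -1.58 and S100A9 -0.46. MMP1 was also at -0.30 in left folds and at -0.10 to 2.17 with 1 animal left out, the lowest without control animal 2.

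List medians that changed sign with the batch term were adipocyte 0.01, coupling 0.59, myogenic 0.12, sarcomere 0.43 and stress 0.68. With the muscle level they were adipocyte 0.05, cell cycle -0.69, smooth muscle 0.12, cytoplasmic ribosome -0.02, coupling 0.34, inflammation -0.64, myogenic 0.05, sarcomere 0.25, basal -0.29 and differentiated squamous -0.21. Coupling and sarcomere genes are themselves part of that level. The adipocyte median was 0.03 in left folds and 0.01 to 0.05 without VFLP (au) or control animal 2, and the ATF4 median was -0.03 (without control animal 2) to 0.47 with 1 animal left out. The complement median was -0.06 with no filter on low counts and -0.15, -0.19 and -0.01 without VFLP (au) animal 2, VFLP (au) animal 3 and control animal 1, and the matrix turnover median -0.26 to 0.05, the highest without VFLP (au) animal 3. Causes were not tested.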

Other observations

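VFLP (au) animal 2 stood apart from the other 2 animals of its group in several genes that were looked at after their values were seen. LDHA, the lactate dehydrogenase subunit of glycolytic tissue, stood at 158 CPM in that animal and at 0.439 and 0.268 CPM in the other 2, with 0.827, 2.47 and 1.14 CPM in control. The control levels are low beside those of the glycolytic enzyme ALDOA, at 6985 to 24494 CPM in the same animals. Whether this row captures the reads of LDHA is therefore uncertain. TOP2A, which untangles DNA in dividing cells, stood at 101 CPM in VFLP (au) animal 2. The mean log2 CPM of the cell cycle list was 5.61 in that animal, against 4.04 and 3.95 in the other VFLP (au) animals and 3.40 to 4.23 in control. SCGB1A1 stood at 0.352 CPM in that animal and at 319 and 6993 CPM in the others. The cause was not tested.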
